A study of Mus musculus with 15 samples.

Results

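The multicopy genes Gm3453, Gm8362, Gm5458, Gm3149, Gm3476, Gm6370 and Gm3417 were followed through spermatogenesis and across JQ1 treatment and recovery, as 7 of the 32285 genes counted in single-cell RNA-seq (scRNA-seq) of mouse testis. They were chosen by symbol, because they had led a cluster of early round spermatids in these same data, so their levels by stage are a description and carry no test. The choice was made over cells of all groups, treated ones included, so it was not independent of the groups. Whole testes of adult DBA/2J males, 1 testis and 1 library per mouse, gave 15 libraries in 5 groups of 3. JQ1, an inhibitor of the BET bromodomain proteins that include the testis protein BRDT, was injected intraperitoneally at 50 mg/kg daily for 3 wk. In the treatment group (T) the testes were taken at once, at 10 wk of age, and in the recovery group (R) they were taken 6 wk later, at 16 wk. Vehicle mice of 10 wk (VC-T) and 16 wk (VC-R) accompanied them. Untreated mice of 15 wk (UC) served both comparisons, so that T and UC also differed in age.

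The libraries held 9673587 to 98724982 unique molecular identifiers (UMIs), and 72362 cells were kept. Levels are in CPM, the UMIs of a gene scaled to the total UMIs of the cells concerned and summed within a library, so the mouse is the replicate. Clusters, built without the 7 genes or their relatives, were named by marker transcripts and are called spermatid-like and so on. Cell barcodes were little shared between libraries, with 663 of the 71699 barcode sequences found in 2 or more. The library VC-T 1 was left out of comparisons, and values with it are given where a result rests on VC-T. Its removal follows the published analysis.

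Round spermatids are the haploid cells that follow the meiotic divisions, before the nucleus elongates and protamines replace histones. Several large multicopy gene families are transcribed mostly in these cells. The takusan family, named with the Japanese word for many, is a large group of copied genes on mouse chromosome 14, and its founding proteins were described in neurons as partners of the synaptic scaffold PSD-95. BRDT binds acetylated histones in meiotic and haploid germ cells, and JQ1 competes for that binding.

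The shared label of takusan-like held for 5 of the 7 genes. Gm3453, Gm8362, Gm5458, Gm3149 and Gm3476 lie on chromosome 14 and encode proteins that are 93.1 to 99.2% identical to each other. Their closest relative with a takusan name in RefSeq, 2610042L04Rik (synonym Tksn), was 75.2% identical to the Gm5458 protein. Among the translated genes of GENCODE vM21, 117 more were related to these 5, all on chromosome 14, and 28 of those were over 90% identical to a member. Gm6370 belonged to another family of 13 relatives, of which 12 lie on chromosome 5 and 1 on chromosome 7. Gm3417 had only Tcte3 and Gm3448 as relatives, both on chromosome 17 and both 99.5% identical to it. Tcte3 encodes a dynein light chain of the sperm flagellum, so Gm3417 is a copy of a known gene of another kind. The chromosome 14 genes are therefore described as a group, and Gm6370 and Gm3417 each on its own.

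All 7 are annotated as protein-coding, with 4 exons in Gm3417 and 5 in each other gene. In GRCm38 the positions are chr14:5970744-5979137 (minus strand) for Gm3453, chr14:6765962-6774411 (minus) for Gm8362 and chr14:19594139-19602581 (minus) for Gm5458. Gm3149 lies at chr14:4317283-4325721 (plus) and Gm3476 at chr14:6105321-6125807 (minus). Gm6370 occupies chr5:146491363-146494132 (plus) and Gm3417 chr17:14964242-14978790 (minus). Gm8362 lies wholly inside the antisense transcript Gm26680. Gm3476 shares 3345 bases with Gm3468 on its own strand, and Gm3417 shares 323 bases with 9030025P20Rik on the opposite strand. Reads from those overlaps could have been counted for a partner gene.

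The coding starts of the chromosome 14 genes show how alike the copies are. The first 90 coding bases, all in exonic sequence of GRCm38, are given 5′ to 3′ with the 7 bases that vary among the copies in capitals. They lie at chr14:5979043-5979132 for Gm3453, chr14:6774259-6774348 for Gm8362 and chr14:19602429-19602518 for Gm5458, all on the minus strand. Those of Gm3149 lie at chr14:4317346-4317435 on the plus strand and those of Gm3476 at chr14:6125653-6125742 on the minus strand.
Gm3453: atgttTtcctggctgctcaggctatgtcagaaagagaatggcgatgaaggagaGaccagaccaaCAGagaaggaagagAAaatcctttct
Gm8362: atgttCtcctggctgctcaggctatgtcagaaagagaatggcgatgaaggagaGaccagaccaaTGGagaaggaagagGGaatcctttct
Gm5458: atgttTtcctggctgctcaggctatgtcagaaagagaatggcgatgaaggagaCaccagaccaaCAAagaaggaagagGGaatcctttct
Gm3149: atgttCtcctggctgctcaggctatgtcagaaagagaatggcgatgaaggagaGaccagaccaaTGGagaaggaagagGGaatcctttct
Gm3476: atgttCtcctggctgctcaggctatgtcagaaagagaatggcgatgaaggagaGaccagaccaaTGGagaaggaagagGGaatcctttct
Gm8362, Gm3149 and Gm3476 were identical over these bases. Counted from 1 at the A of the start codon, and with the base of Gm5458 first, they differed from Gm5458 by T6C, C54G, C65T, A66G and A67G. Gm3453 differed from Gm5458 by C54G, A67G, G79A and G80A. Over the whole coding sequence the pairs were 97.1 to 99.7% identical, the closest being Gm3149 and Gm3476. Gm5458 was the shortest, with 612 coding bases and 204 residues, against 771 bases and 257 residues in Gm8362, Gm3149 and Gm3476 and 789 bases and 263 residues in Gm3453.

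Such likeness bears on the counts, because a read that matches several genes equally well is not assigned to 1 of them. The counted reads start near the 3′ end of a transcript, so windows of 90 bases, which stand for the length of a read, were searched over the last 400 bases of each annotated transcript. In Gm3149, 66.6% of these windows occurred without a mismatch in another annotated gene. The share was 54.0% in Gm8362, 45.3% in Gm3476, 32.8% in Gm3453 and 24.4% in Gm5458. Between 23 and 28 other genes held such a window of each of these 5. For Gm6370 the share was 19.6%, nearly all of it with 4930449I24Rik. For Gm3417 it was 71.1%, always with both Tcte3 and Gm3448. By this search, the UMIs of a copy would come from the part of its 3′ end that no other annotated gene shares. The search covered annotated transcripts of the reference genome only. Where the counted reads lay was not tested, nor was whether the copies in the strain of these mice match the annotated ones. Levels are compared here between cells and groups but not between copies.

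**Figure D1:**
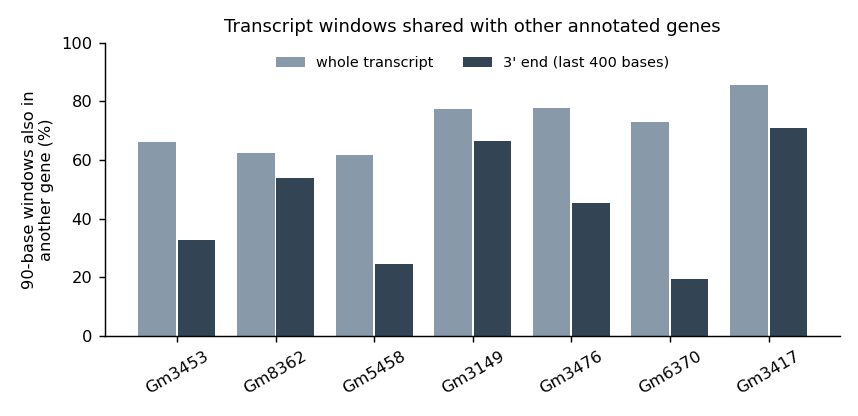
Percentage of 90-base windows of each member's transcript that occur without a mismatch in another annotated gene, over the whole transcript (light bars) and over its last 400 bases (dark bars). Gm3417 has the highest share at the 3′ end (71.1%) and Gm6370 the lowest (19.6%).

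The bases upstream of 2 of the chromosome 14 genes were as alike as their coding sequence, which is 97.4% identical in this pair. RefSeq promoter windows (GRCm38.p6) were found for 4 of the 7 genes, and the parts of the Gm5458 and Gm3476 windows that align upstream of the start are shown because both genes moved in the comparisons below. They are chr14:19602604-19602837 and chr14:6125828-6126061, both on the minus strand, with the bases that differ in capitals.
Gm5458: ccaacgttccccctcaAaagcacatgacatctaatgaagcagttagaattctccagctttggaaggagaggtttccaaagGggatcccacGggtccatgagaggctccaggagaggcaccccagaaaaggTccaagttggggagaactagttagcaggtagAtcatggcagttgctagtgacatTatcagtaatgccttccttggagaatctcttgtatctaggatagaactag
Gm3476: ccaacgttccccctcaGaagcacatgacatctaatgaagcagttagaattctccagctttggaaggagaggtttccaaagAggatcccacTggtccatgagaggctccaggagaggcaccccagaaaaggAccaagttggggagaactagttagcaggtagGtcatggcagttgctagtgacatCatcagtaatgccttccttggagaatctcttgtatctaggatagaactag
These 234 bases differed at 6 positions (97.4% identity). The 250 upstream bases of Gm6370, at chr5:146491107-146491356 on the plus strand, are printed with matches to the X-box half-site letters GTTNCC in capitals.
Gm6370: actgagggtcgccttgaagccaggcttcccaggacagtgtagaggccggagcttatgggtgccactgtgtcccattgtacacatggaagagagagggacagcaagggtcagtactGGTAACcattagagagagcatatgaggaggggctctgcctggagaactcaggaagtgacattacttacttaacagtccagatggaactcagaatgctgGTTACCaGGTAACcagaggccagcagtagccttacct
On either strand, GTTNCC matched 3 times in Gm6370, 2 times each in Gm5458 and Gm3476 and not in Gm3417, and 39.4% of the 32851 promoters of the same length held it. The cAMP response element letters TGACGTCA, found in 1.55% of promoters, and the TATA box letters TATAAA, found in 12.4%, were in none of the 4 windows. The promoter window of Gm3417 was the same as that of Tcte3, with 0 differences over 300 bases.

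The summed level of the 5 chromosome 14 genes was highest in 2 neighbouring spermatid-like clusters in the first part of the spermatid course, numbered 18 and 2 and called the early clusters below (6699 cells). Only cluster 16 of those scored as spermatid-like lay before them in pseudotime. It had 64.2% of its cells from R and a median of 1263 UMIs, and it was led by the haemoglobin genes Hba-a1, Hbb-bs, Hbb-bt and Hba-a2 with no spermatid marker among its 10 leading genes, so that its name is doubtful. These clusters were picked by the summed level of the 5 genes, as those with at least 0.5 of the highest sum, and held 528 and 461 CPM as means of the groups. The next spermatid-like cluster, number 10, fell outside with 236 CPM. In the 8 control libraries without VC-T 1, the 5 genes summed to 441 ± 24.6 CPM (SD, n = 8) in the early clusters. They summed to 22.4 ± 20.2 CPM in spermatogonia-like cells, 14.9 ± 10.2 CPM in spermatocyte-like cells and 15.7 ± 3.11 CPM in spermatozoa-like cells, and these last 3 levels overlapped across libraries. An unnamed cluster between the spermatocytes and the spermatids (1299 cells) was already at 350 ± 54.4 CPM, and its range of 287 to 443 CPM overlapped that of the early clusters, 408 to 493 CPM. Cluster 16 was at 201 ± 62.1 CPM (n = 5).

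Each of the 5 was highest in cluster 18. Between the unnamed cluster and early cluster 18, control means went from 70.2 to 92.9 CPM for Gm3453, from 80.9 to 106 CPM for Gm8362 and from 83.1 to 165 CPM for Gm5458. Gm3149 went from 61.8 to 72.9 CPM and Gm3476 from 53.8 to 88.1 CPM. Early cluster 2 held 60.8 CPM of Gm3453, less than the unnamed cluster, and 89.8 CPM of Gm8362, 142 CPM of Gm5458, 68.6 CPM of Gm3149 and 66.6 CPM of Gm3476. In cluster 5, the next spermatid-like cluster in pseudotime, the same genes stood at 13.7 CPM (Gm3453), 24.1 CPM (Gm8362), 39.7 CPM (Gm5458), 18.0 CPM (Gm3149) and 24.4 CPM (Gm3476). Cluster 10, which lies later and in which 77.7% of cells came from R, was higher again, with a sum of 238 ± 64.7 CPM over 7 control libraries. The acrosomal genes Acrv1 and Spaca1, both markers of the spermatid class, went the other way, from 353 and 562 CPM in cluster 18 to 636 and 948 CPM in cluster 5.

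**Figure D2:**
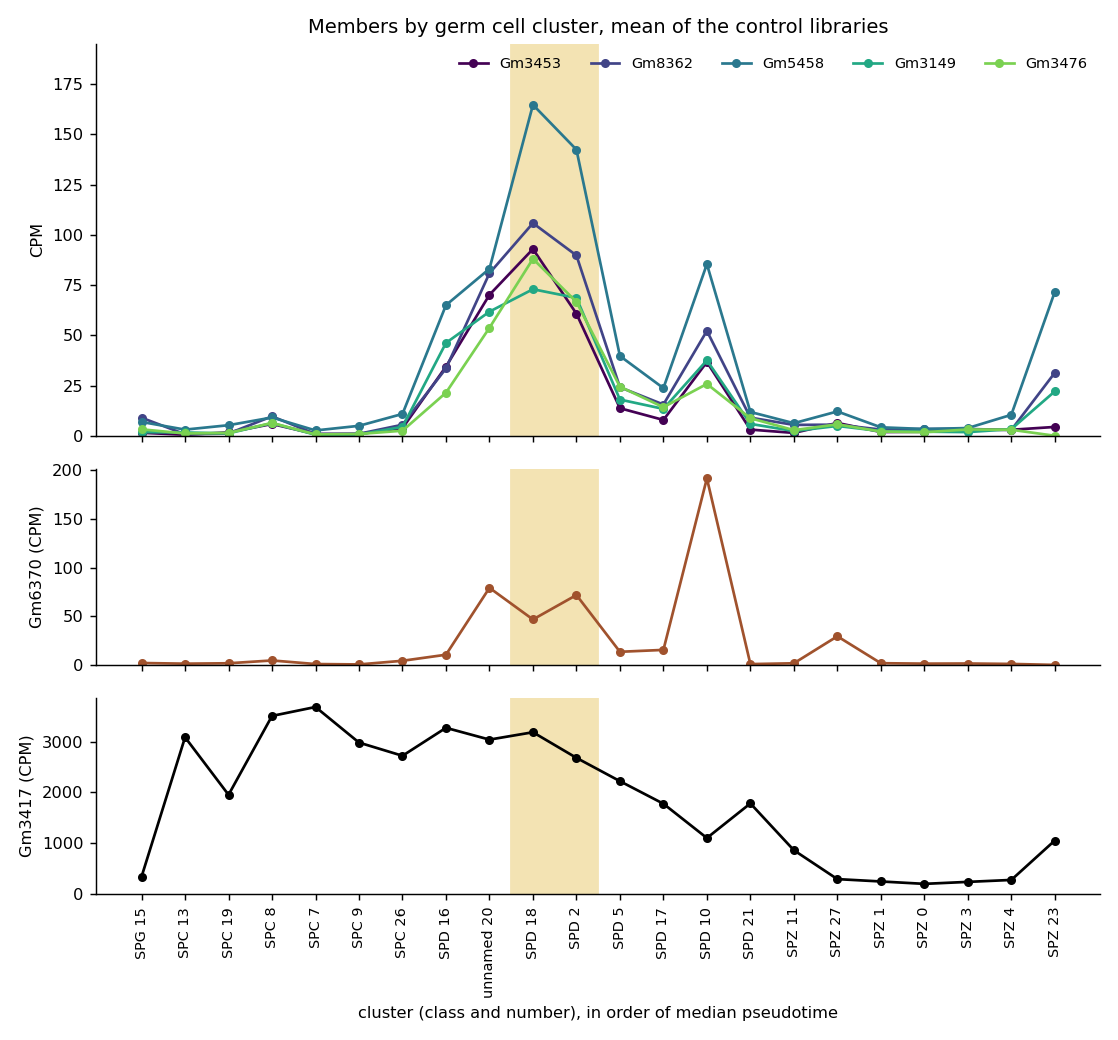
Level in CPM of each member (mean of the control libraries) in each germ cell cluster, in order of pseudotime, with spermatogonia-like (SPG), spermatocyte-like (SPC), spermatid-like (SPD) and spermatozoa-like (SPZ) clusters by number and the early clusters shaded. The 5 chromosome 14 genes peak in the shaded clusters, Gm6370 is highest in cluster 10 (192 CPM) and Gm3417 is high in spermatocyte-like and early spermatid-like cells and low in most spermatozoa-like clusters.

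Gm6370 and Gm3417 followed courses of their own. Gm6370 was at 2.01 ± 0.900 CPM in control spermatocyte-like cells, 68.0 ± 11.2 CPM in the early clusters (n = 8) and 192 CPM in cluster 10. Gm3417 was at 3187 ± 642 CPM in spermatocyte-like cells and 2758 ± 533 CPM in the early clusters, 2 levels that overlapped across libraries. It stood at 342 ± 177 CPM in spermatogonia-like and 398 ± 78.8 CPM in spermatozoa-like cells. It was thus already high in spermatocyte-like cells.

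Divided into 50 bins of pseudotime, the summed chromosome 14 genes were highest in bins 15 to 21 in all 15 libraries. Gm3417 was highest in bins 6 to 16 and Gm6370 in bins 17 to 29. The T libraries had no cells in the last bins, and their peak fell in bins 16 and 17, within the range of the other groups.

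**Figure D3:**
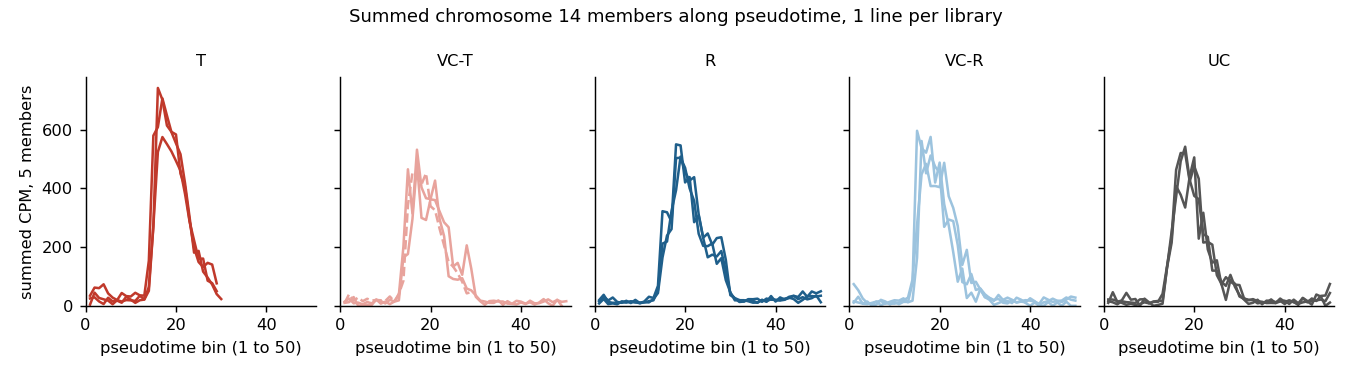
Summed CPM of the 5 chromosome 14 members against pseudotime bin, with 1 line per library and 1 panel per group (dashed, VC-T 1). The peak lies in bins 15 to 21 in every library and reaches 575 to 742 CPM in T and 453 to 596 CPM in the other groups.

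Over the 32 clusters with control cells, the likeness of other genes was measured by Pearson's r with the members' control levels, as a description of points that share libraries. For the sum of the 5 chromosome 14 genes, the nearest genes outside the families were 1700001F09Rik (r = 0.919), Gm10375 (0.894), 3830417A13Rik (0.892), Gm10376 (0.885) and Gm30228 (0.870). Gm6370 reached r = 0.563 and Gm3417 r = 0.270 with the same sum. For Gm6370 the nearest were Gm40375 (0.944), AC171003.1 (0.938) and 4933436I20Rik (0.933). For Gm3417 they were Fbp1 (0.983), 1700028J19Rik (0.980) and 1700010I14Rik (0.977), and its copy Tcte3 reached 0.930.

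Within the early clusters most cells held UMIs of few copies. Of the 6699 cells, 27.0% had no UMI of any chromosome 14 member, 29.1% had UMIs of 1, 19.7% of 2, 13.0% of 3, 7.11% of 4 and 4.09% of all 5. These shares depend on depth, whose median was 2940.5 UMIs per cell in T, 4522.5 in UC, 3675 in VC-R and 8722 in R. In VC-T it was 1713.5 in VC-T 1, which gave 1710 of the 2009 early cells of that group, 12458 in VC-T 2 and 4140 in VC-T 3. Thinned to 1000 UMIs per cell, 42.7% of early cells in T, 34.0% in UC, 33.1% in VC-T (34.0 and 34.7% in VC-T 2 and 3), 34.5% in R and 36.7% in VC-R had a UMI of at least 1 of the 5. By library, the thinned share was 40.1 to 44.1% in T and 32.7 to 39.1% in the 12 others, without overlap. Unthinned, the share was 78.8% in T and 77.0% in UC.

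Free RNA can put UMIs into cells that do not express a gene, so cells that should lack these transcripts were read in the same way. In Leydig-like cells the thinned share for the 5 genes was 2.89% in UC (33 cells, median 2666 UMIs), 4.0% in R (210 cells, 4288.5 UMIs) and 7.78% in T (31 cells, 1400 UMIs). These shares were far below those of the early clusters in each group, but they too were higher in T than in UC. The part of this background in the higher thinned share of T in the early clusters was not tested. For Gm6370 the thinned share was 0.905% in Leydig-like cells of R, against 4.96% in their early clusters. For Gm3417, Leydig-like cells had thinned shares of 24.1 to 54.7%, against 87.8 to 93.0% in the early clusters, so that its level of 342 CPM in spermatogonia-like cells is not above the 699 ± 755 CPM of Leydig-like cells (n = 5). All somatic-like cells together held 124 CPM of the 5 genes in T (n = 2 libraries) and 45 CPM in the controls (n = 8). With the somatic-like level of each library subtracted, the log2 ratio of the 7-gene sum between T and controls in the peak stage, given below, went from 0.086 to -0.33 (n = 2 against 5). The same subtraction for the 5 genes alone is given with their sums below, and for single members the part of the somatic-like level was not tested.

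Whether JQ1 changed the members was asked first in the peak stage of 4 spermatid-like clusters (12358 cells). In these the 7 genes summed to at least 0.5 of their highest value in a spermatid-like cluster, 3638 CPM in cluster 18. The last cluster inside had 2335 CPM and the first spermatid-like cluster outside 1814 CPM. Outside this class, spermatocyte-like cluster 7 held 3575 CPM, so the stage is not a peak of the 7-gene sum over all cells. Fold changes come from edgeR's quasi-likelihood test on UMIs summed per library, with Benjamini-Hochberg adjustment over all genes tested. A gene is said to rise or fall at an adjusted p under 0.05, and a further threshold, an absolute log2 fold change over 1, is named where used. In T against UC, all 5 chromosome 14 genes rose, while Gm6370 and Gm3417 did not pass. Of 10921 genes tested, 6.94% rose and 11.5% fell. None of the 7 reached the fold threshold, which 1.34% of genes passed upward and 2.45% downward, whereas 5 of the 7 were under 0.05 before adjustment. DESeq2 gave no member past the fold threshold either. The peak stage includes cluster 16, and without it the same 5 genes rose against UC (0.38 to 0.60, edgeR adjusted p = 0.00037 to 0.038).

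Gm5458 had 156, 146 and 158 CPM in T 1 to 3, 91.2, 86.7 and 108 CPM in UC 1 to 3, and 79.6 and 97.3 CPM in VC-T 2 and 3. The T libraries lay above all of these controls. Its log2 fold change was 0.57 ± 0.094 (SE, edgeR adjusted p = 0.00046) against UC and 0.65 ± 0.11 (adjusted p = 0.0013) against VC-T. Gm3149 had 75.4, 70.8 and 81.2 CPM in T, 46.2, 41.7 and 50.5 CPM in UC, and 39.3 and 51.3 CPM in VC-T. It too was separate, with log2 fold changes of 0.60 ± 0.12 (edgeR adjusted p = 0.0017) and 0.60 ± 0.14 (adjusted p = 0.0092). Leaving out VC-T 2 took the second of these to 0.39 and an adjusted p of 0.084.

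Gm8362 had 98.2, 93.3 and 97.4 CPM in T, against 56.5, 56.9 and 76.2 CPM in UC and 54.9 and 59.8 CPM in VC-T. The groups did not overlap, and the log2 fold changes were 0.48 ± 0.11 (edgeR adjusted p = 0.0067) and 0.60 ± 0.11 (adjusted p = 0.0022). Gm3453 had 65.6, 57.5 and 66.9 CPM in T, 43.8, 43.9 and 48.0 CPM in UC, and 35.1 and 36.1 CPM in VC-T. Its log2 fold change was 0.37 ± 0.12 (edgeR adjusted p = 0.034) against UC and 0.67 ± 0.13 (adjusted p = 0.0035) against VC-T. Gm3476 had 77.7, 67.0 and 81.6 CPM in T, 45.6, 48.7 and 62.8 CPM in UC, and 38.3 and 40.2 CPM in VC-T. Its log2 fold change was 0.39 ± 0.13 (edgeR adjusted p = 0.039) against UC and 0.78 ± 0.13 (adjusted p = 0.0014) against VC-T. Against UC, the calls of Gm3453 and Gm3476 were the least secure. Each was lost on leaving out T 1, T 3, UC 1 or UC 2, with adjusted p of 0.100 to 0.110 for Gm3453 and 0.107 to 0.171 for Gm3476.

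Against VC-T, 5 members rose and 1 fell, where 6.93% of 11728 genes rose and 13.0% fell. The member that fell was Gm3417, with 2061, 2569 and 2651 CPM in T and 3159 and 2928 CPM in VC-T 2 and 3. Its log2 fold change was -0.48 ± 0.10 (edgeR adjusted p = 0.0053) in that comparison and 0.16 ± 0.085 (adjusted p = 0.22) against UC, whose libraries had 2090, 1830 and 2165 CPM. Without T 1 the difference from UC was 0.27 (adjusted p = 0.011). UC itself lay below every library of VC-T and VC-R for this gene, since VC-T 1 had 2235 CPM and VC-R 2467 to 3157 CPM. With VC-T 1 included, the fall was -0.29 (adjusted p = 0.30), while all 5 chromosome 14 genes still rose, at adjusted p of 0.016 to 0.042. Gm6370 had 43.6, 39.5 and 52.2 CPM in T and 44.4, 32.0 and 59.6 CPM in UC, a difference of -0.17 with a 95% interval from -0.53 to 0.19.

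The make-up of the peak stage differed between groups. The early clusters, where the chromosome 14 genes are high, made up 71.4 ± 4.35% of peak-stage cells in T and 52.1 ± 12.1% in UC (n = 3 each). They made up 42.1 ± 29.0% in VC-T, where VC-T 2 had 10.0%, 41.4 ± 22.0% in R, where R 3 had 16.0%, and 58.7 ± 7.13% in VC-R. The members were therefore read again within the early clusters alone, a comparison added after this was seen.

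Within the early clusters the chromosome 14 sum was 607, 529 and 585 CPM in T, 439, 422 and 438 CPM in UC, 418, 408 and 441 CPM in VC-T, 455, 452 and 478 CPM in R, and 493, 451 and 440 CPM in VC-R. Each T library lay above the 12 others. With the somatic-like level of each library subtracted, a reading added after the data were seen, the sums were 517 and 427 CPM in T 1 and 3 and 316 to 464 CPM in the 11 other libraries without VC-T 1, so that T 3 overlapped VC-R. They stayed above UC and VC-T (316 to 414 CPM), at means of 472 ± 63.4 (n = 2) and 376 ± 42.2 CPM (n = 5). In the peak stage the subtracted sums were 383 and 328 CPM in T 1 and 3 and 160 to 306 CPM in UC and VC-T. They were 262 to 343 CPM in VC-R, so that T 3 overlapped VC-R there too. The somatic-like level rests on 18 and 19 UMIs of the 5 genes in T 1 and 3. It rests on 3 to 79 in UC and VC-T and on 1 to 40 in VC-R, and T 2 had too few somatic-like cells. The sums before subtraction rest on 373 to 2982 UMIs per library. The difference between T and UC was smaller than in the peak stage, at means of 574 ± 40.1 and 433 ± 9.58 CPM against 464 ± 26.8 and 302 ± 37.8 CPM (n = 3).

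In these clusters 3 of the 7 members rose in T against UC, where 4.7% of 9837 genes rose and 8.34% fell. Gm5458 had 199, 178 and 187 CPM in T and 140, 132 and 139 CPM in UC, a log2 fold change of 0.39 ± 0.088 (edgeR adjusted p = 0.0028). Gm3149 had 95.5, 87.3 and 103 CPM against 69.4, 65.8 and 64.7 CPM, or 0.44 ± 0.11 (edgeR adjusted p = 0.0084). Gm8362 had 127, 113 and 118 CPM against 91.8, 82.0 and 96.7 CPM, or 0.32 ± 0.10 (edgeR adjusted p = 0.036). The call of Gm5458 held on leaving out any 1 library, that of Gm3149 was lost without UC 3 (adjusted p = 0.057) and that of Gm8362 without T 1, T 3, UC 1 or UC 2 (0.056 to 0.15). By DESeq2, Gm3149 (adjusted p = 0.090) and Gm8362 (0.22) did not pass. Gm3476 (0.24, adjusted p = 0.18) and Gm3453 (0.21, adjusted p = 0.26) did not pass by edgeR. Gm6370 was at -0.36 (edgeR adjusted p = 0.079), and without UC 2 at -0.49 (0.024), and Gm3417 at 0.14 (0.21), and without T 1 at 0.26 (0.0020).

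Cells also differ in position within the early clusters. With the same number of cells from each library in every pseudotime bin, 124 per library, the chromosome 14 sum was 539 ± 12.2 CPM in T and 440 ± 7.56 CPM in UC (n = 3), without overlap. In that reading no single member passed by edgeR, although Gm5458, with 0.38 ± 0.12 (adjusted p = 0.068), and Gm3417, with 0.18 ± 0.074 (adjusted p = 0.15), were under 0.05 before adjustment. The other differences, with fewer UMIs behind them, were 0.32 for Gm3149, 0.24 for Gm8362, 0.10 for Gm3476, -0.16 for Gm6370 and -0.0015 for Gm3453. For Gm3453 the 95% interval ran from -0.41 to 0.40.

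Against VC-T within the early clusters, Gm3476 rose (0.46 ± 0.14, edgeR adjusted p = 0.021) and Gm6370 and Gm3417 fell, where 3.91% of 10112 genes rose and 7.47% fell. Gm3476 had 99.0, 80.9 and 96.6 CPM in T and 60.7 and 63.6 CPM in VC-T 2 and 3, and its call was lost without T 1, VC-T 2 or VC-T 3 (adjusted p = 0.087 to 0.23), by DESeq2 (0.15) and with equal cells per pseudotime bin (0.60, adjusted p = 0.18). Gm5458, at 0.29 ± 0.10 with an adjusted p of 0.054, lay just outside, and passed without T 2 (0.047). With VC-T 1 included, Gm8362, Gm5458 and Gm3149 passed as well (edgeR adjusted p = 0.036, 0.026 and 0.048). The fall of Gm6370, -0.45 ± 0.15 (edgeR adjusted p = 0.043), came with overlapping libraries of 59.0, 48.5 and 65.6 CPM in T and 58.4 and 86.0 CPM in VC-T. It was lost without VC-T 3 (-0.14, adjusted p = 0.77), without T 1 (0.067) without T 2 (0.18), with VC-T 1 included (-0.21, adjusted p = 0.50), by DESeq2 (0.27) and with equal cells per bin (-0.42, adjusted p = 0.51). Gm3417 fell by 0.46 ± 0.077 on the log2 scale (edgeR adjusted p = 1.33e-05) and with VC-T 1 included did not pass (-0.29, adjusted p = 0.17).

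**Figure D4:**
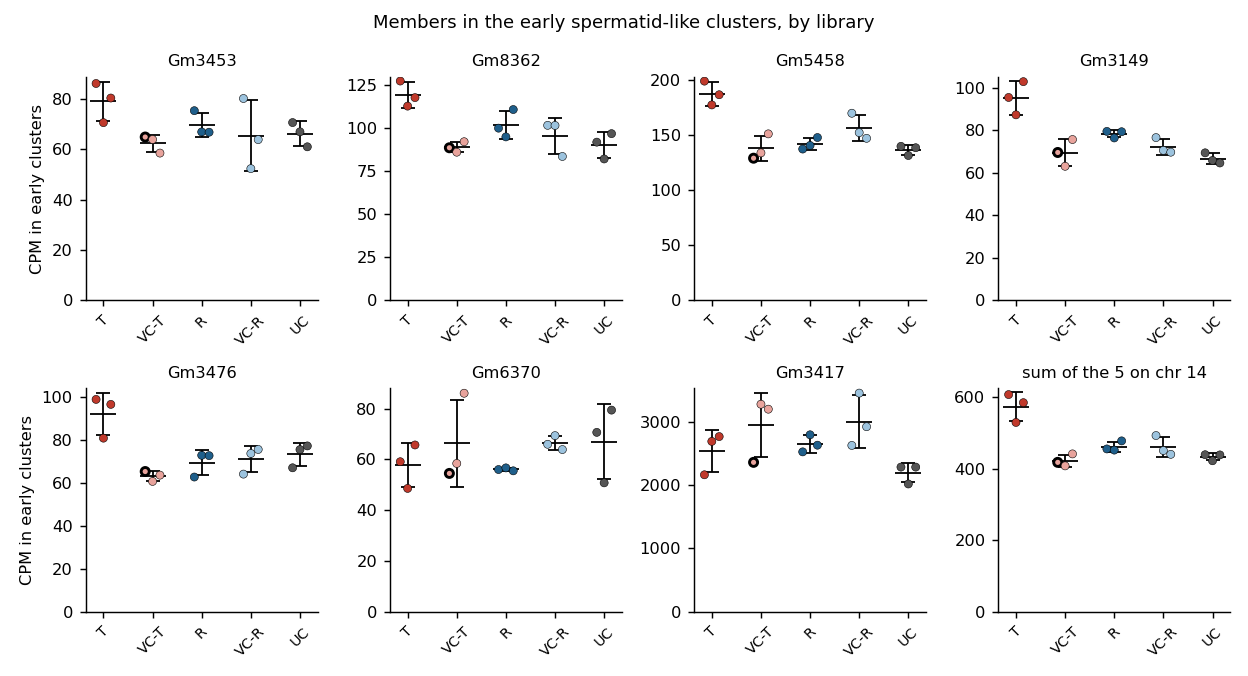
Level in CPM of each member and of the chromosome 14 sum in the early clusters, with 1 point per library, and the mean and SD of each group (VC-T 1 is ringed in bold). The T points of the sum, 529 to 607 CPM, lie above all others, whereas those of Gm6370 overlap the controls.

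At 6 wk after the last dose, no chromosome 14 gene passed against either control by edgeR in the peak stage as defined above or in the early clusters. In the peak stage none of the 5 passed in R against UC, where 3.03% of 11004 genes rose and 5.43% fell, and Gm8362 and Gm3149 were under 0.05 before adjustment. Gm3149 had 61.5, 63.5 and 59.7 CPM in R, above the 46.2, 41.7 and 50.5 CPM of UC, with a log2 fold change of 0.35 ± 0.12 (edgeR adjusted p = 0.073). Without UC 3, Gm3149 (0.41, adjusted p = 0.034) and Gm8362 (0.41, adjusted p = 0.017) passed. Without cluster 16, most of whose cells came from R, Gm3149 passed (0.45, edgeR adjusted p = 0.021), and the other 4 had 0.10 to 0.34 with adjusted p of 0.077 to 0.68. The sum of the 5 was 365, 366 and 356 CPM in R, above the 283, 278 and 346 CPM of UC but overlapping the 372, 320 and 299 CPM of VC-R. In the early clusters R and VC-R had nearly the same sum, 462 ± 14 and 461 ± 27.8 CPM (n = 3), and the differences of these genes between R and UC ran from -0.11 for Gm3476 to 0.21 for Gm3149. With the same number of cells per pseudotime bin, the sum in the early clusters was 488 CPM in R (472 to 503) and 436 CPM in UC and VC-R (417 to 462, n = 6), and in the peak stage 386 CPM (378.5 to 399.6) and 324 CPM (305 to 352). R lay above all 6 controls in both of these readings. Matched to UC alone in the early clusters, the differences of the 5 genes ran from -0.00058 for Gm3476 to 0.36 for Gm8362. None of the 5 passed by edgeR, while Gm8362 and Gm5458 (0.25) were under 0.05 before adjustment. Matched to VC-R alone, with more cells per library, the early sums overlapped, at 479 CPM (471 to 491) and 435 CPM (405 to 481).

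Gm3417 was the member that rose in R against UC. It had 2423, 2672 and 2573 CPM in R and 2090, 1830 and 2165 CPM in UC, a log2 fold change of 0.28 ± 0.059 (edgeR adjusted p = 0.0099), and was lost without R 2 (adjusted p = 0.060) or UC 2 (0.063). Within the early clusters it rose by 0.24 ± 0.048 (edgeR adjusted p = 0.0037), where 1.17% of genes rose and 1.57% fell, and was lost without R 2 (0.054). Gm6370 was there at -0.35 (0.16), and without UC 2 at -0.47 (0.047). Against VC-R, at 2467, 3157 and 2730 CPM, Gm3417 did not pass in the peak stage (-0.17 ± 0.082, edgeR adjusted p = 0.24). No member passed in R against VC-R by edgeR or DESeq2, where 0.7% of 10998 genes rose and 1.62% fell, and Gm3417 was the 1 member under 0.05 before adjustment. Without VC-R 1, Gm3453 (0.43, adjusted p = 0.032) and Gm3417 (-0.28, adjusted p = 0.0020) passed. Within the early clusters none of 9531 genes passed in that comparison by edgeR (0.0%), 681 were under 0.05 before adjustment, and Gm6370 and Gm3417 were under 0.05 before adjustment.

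**Figure D5:**
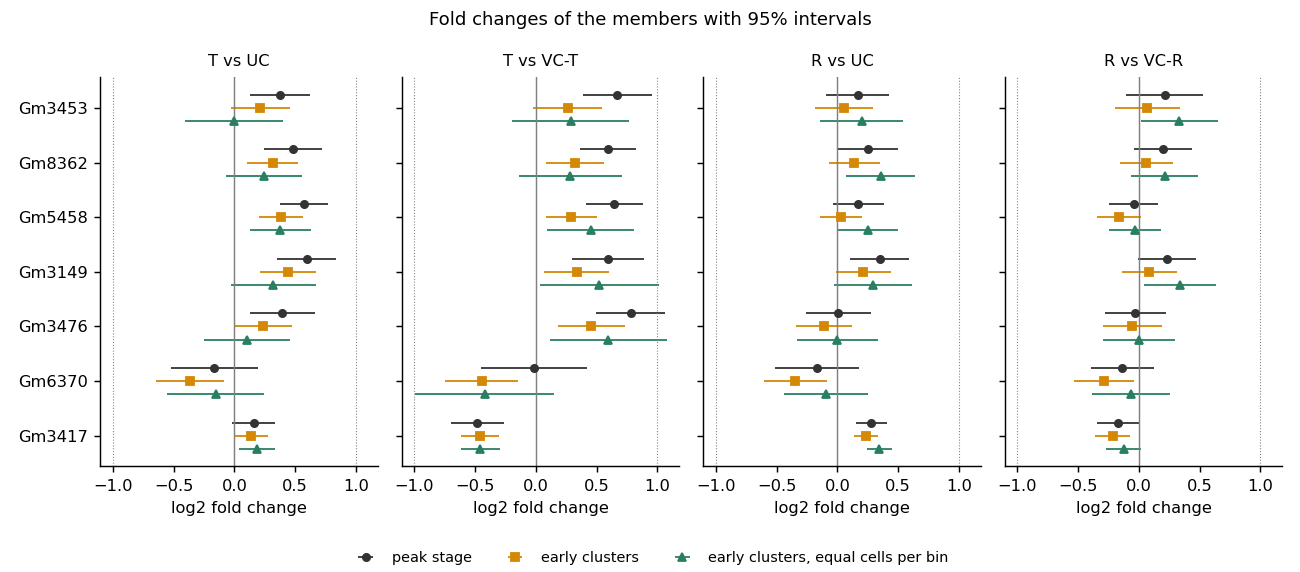
Log2 fold change of each member with its 95% interval in the 4 comparisons, for the peak stage, the early clusters and the early clusters with equal cells per pseudotime bin (dotted lines, the study's fold threshold). The 5 chromosome 14 genes lie right of 0 in T against UC and VC-T in the peak stage (0.37 to 0.78) and nearer 0 in the early clusters (0.21 to 0.46).

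The 2 treatment effects were compared directly in 1 fit, as the difference between T against VC-T and R against VC-R. It passed for Gm5458 (0.71 ± 0.15 on the log2 scale, edgeR adjusted p = 0.0042) and Gm3476 (0.83 ± 0.19, adjusted p = 0.0076) in the peak stage, and in the early clusters for Gm5458 (0.47 ± 0.13, adjusted p = 0.047) but not Gm3476 (0.52 ± 0.18, adjusted p = 0.15). Of all genes, 794 of 12127 passed in the peak stage and 238 of 10700 in the early clusters. For the other 5 members the adjusted p was 0.17 or more in the peak stage. The difference did not pass for Gm3417 (-0.29 ± 0.14, adjusted p = 0.27). With VC-T 1 included, the peak-stage difference still passed for Gm5458 (0.68 ± 0.14, edgeR adjusted p = 0.027) but not for Gm3476 (0.71 ± 0.18, adjusted p = 0.065), where 147 of 11867 genes passed. Both were lost without VC-T 2 (0.54, adjusted p = 0.082, and 0.77, adjusted p = 0.069) and held without any other library of the 4 groups. In the early clusters Gm5458 passed with VC-T 1 (0.57, adjusted p = 0.015) and was lost on leaving out any 1 of the other 11 libraries (adjusted p = 0.0501 to 0.35).

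The unnamed cluster before the spermatids was described without a test. There the chromosome 14 sum was 522, 500 and 451 CPM in T, 303, 295 and 370 CPM in UC, and 317, 443 and 378 CPM in VC-T, on 25 to 384 UMIs per library in these groups. The T libraries lay above the others. In spermatocyte-like cells the chromosome 14 genes were too low for a comparison of any precision, and no member passed in T against UC or R against UC by edgeR. In the first of these 0.623% of genes rose and 1.45% fell, and in the second 0.0% rose and 0.00773% fell. The intervals of the chromosome 14 genes were wide, for Gm5458 from -1.53 to 1.30 in T against UC. Gm3417, which is high in these cells, had 0.10 in T against UC with an interval from -0.18 to 0.38. In R against UC, Gm3476 (-1.16) and Gm3417 (0.23) were under 0.05 before adjustment. Gm3149 in T against UC passed without UC 1 (2.23, adjusted p = 0.034), and by DESeq2 Gm3417 passed in R against UC (0.22, adjusted p = 0.030).

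Summed over all 7, the members are dominated by Gm3417. The sum in the peak stage was 2936 ± 319 CPM in T (n = 3) and 2766 ± 559 CPM in UC with VC-T 2 and 3 (n = 5), and the libraries overlapped. For R it was 2961 ± 127 CPM, against 2768 ± 497 CPM in UC with VC-R (n = 6). Over all kept cells, where the share of each stage also counts, the chromosome 14 genes stood at 170 ± 23.2 CPM in T, 64.6 ± 7.96 CPM in UC, 148, 60.4 and 63.0 CPM in VC-T 1 to 3, 66.7 ± 7.94 CPM in R and 68.8 ± 3.31 CPM in VC-R. More early cells among those captured and more RNA per cell cannot be told apart in that figure.

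The relatives of the members were read as whole lists. Of the 132 relatives in the files, 108 had a UMI in the peak stage and 17 reached 10 CPM. Of the 117 relatives of the chromosome 14 genes, 13 were abundant enough to test in T against UC, and 7 of them rose and none fell, beside 6.94% and 11.5% of all genes, with a median log2 fold change of 0.45 against 0.02 over all genes. In the early clusters 6 of 13 rose, with a median of 0.40, beside 4.7% of all genes. Gm21103, 96.1% identical to Gm5458, rose by 0.44 ± 0.092 (edgeR adjusted p = 0.0031), and Gm7247 by 0.59 ± 0.13 (adjusted p = 0.0053). Gm5795 did not pass against UC (-0.11, edgeR adjusted p = 0.57) and rose against VC-T (0.71 ± 0.15, adjusted p = 0.0052). Against VC-T, 6 of 15 rose in the peak stage (median 0.79, beside 6.93% of all genes) and 3 of 13 in the early clusters (median 0.32, beside 3.91%). Once VC-T 1 was included, 2 of 14 rose in the peak stage (median 0.58, beside 1.37% of all genes) and 1 of 14 in the early clusters (median 0.38, beside 1.79%). Gm5795 then did not pass in the peak stage (0.55, edgeR adjusted p = 0.065). After recovery, 3 of 13 rose in R against UC in the peak stage (median 0.43, beside 3.03% of all genes) and 1 of 13 in the early clusters (median 0.31, beside 1.17%). Gm7247 rose there by 0.58 ± 0.14 in the peak stage (edgeR adjusted p = 0.016), and Gm21103 had 0.27 (adjusted p = 0.086). Against VC-R, the 13 had a median of 0.20 in the peak stage and 0.09 in the early clusters, and by edgeR none passed in either, with 3 and 2 of 13 under 0.05 before adjustment. Gm21103 and Gm5795 share 3′ windows with members, and reads from those windows count for neither gene.

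Of the relatives of Gm6370, 1 of 10 fell and none rose in T against UC in the peak stage, a share near the 11.5% of all genes that fell. In the early clusters 3 of 10 fell, with a median of -0.23, beside 8.34% of all genes. Against VC-T none of the 10 passed by edgeR, with or without VC-T 1, at medians without it of -0.0019 in the peak stage and -0.19 in the early clusters, and 1 and 2 of 10 were under 0.05 before adjustment. In R against UC 2 of 10 fell in the peak stage (beside 5.43%) and 1 of 10 in the early clusters (beside 1.57%), and in R against VC-R none passed by edgeR, with 3 and 1 of 10 under 0.05 before adjustment. The 1 of the peak stage was 1700001J03Rik (-0.27 ± 0.074, edgeR adjusted p = 0.016), which also fell in R against UC (-0.43 ± 0.081, adjusted p = 0.0060). 4930449I24Rik, the copy nearest to Gm6370, did not pass in either. Of the relatives of Gm3417, 1 of 2 rose in the peak stage in T against UC and in R against UC, and it was Gm3448 in both (0.62 ± 0.20, edgeR adjusted p = 0.043, and 0.66 ± 0.17, adjusted p = 0.029). Gm3448 had 32.3, 21.9 and 20.5 CPM in T, 28.3, 24.7 and 24.7 CPM in R and 17.6, 13.0 and 16.2 CPM in UC. It did not pass against VC-T (0.51, adjusted p = 0.16), against VC-R (0.56, adjusted p = 0.13) or in the early clusters. Tcte3 did not pass against UC (-0.21, adjusted p = 0.36). In T against VC-T in the peak stage it moved against Gm3417, with a rise of 0.35 ± 0.094 (edgeR adjusted p = 0.020) beside the fall of Gm3417. With VC-T 1 included Tcte3 still passed (0.42 ± 0.096, adjusted p = 0.041), but the fall of Gm3417 did not. Tcte3 had 378, 332 and 300 CPM in T, 239 and 236 CPM in VC-T 2 and 3, and 438, 425 and 244 CPM in UC. Reads from the windows that both genes hold count for neither.

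Other lists set these values beside round spermatid genes at large, in the peak stage, where 6.94% of all genes rose and 11.5% fell in T against UC. The 5 Dlg genes, a scaffold gene family listed because of PSD-95, were little expressed. Only Dlg1 and Dlg2 of them could be tested in T against UC, and neither passed. Of the Speer genes, another multicopy family of spermatids, 2 of 9 rose, Speer4e (1.04 ± 0.22, edgeR adjusted p = 0.0034) and Speer4c (0.73 ± 0.19, adjusted p = 0.015). Of the multicopy haploid genes Slx, Slxl1, Sly, Ssty and Ssxb, 3 of 7 tested rose, among them Ssxb1 (0.57 ± 0.18, adjusted p = 0.032). Against VC-T, 2 of 12 Speer genes and 0 of 7 of these rose. In the early clusters, 1 of 10 Speer genes and 1 of 7 multicopy haploid genes rose in T against UC, and 0 of 10 and 0 of 8 against VC-T. The shares of all genes that rose were 6.93% against VC-T in the peak stage, and 4.7% against UC and 3.91% against VC-T in the early clusters. Once VC-T 1 was included, 1 of 12 and 1 of 10 Speer genes rose in the peak stage and the early clusters, beside 1.37 and 1.79% of all genes, and 0 of 8 multicopy haploid genes in either. Of 10 acrosome and round spermatid genes 6 fell, such as Acrv1 (-0.31 ± 0.070, adjusted p = 0.0047), and 5 of 10 fell in the early clusters (beside 8.34% of all genes). Against VC-T in the peak stage 3 of 10 fell (median -0.18, beside 13.0%), and 1 of 10 with VC-T 1 included (beside 2.91%). In R against UC in the peak stage 8 of 10 fell (median -0.36, beside 5.43%), Acrv1 among them (-0.35 ± 0.077, edgeR adjusted p = 0.011), and in R against VC-R 1 of 10 (median -0.28, beside 1.62%). All 4 chromatin condensation genes fell past the fold threshold in T against UC, with a median of -3.88, among them Prm1 (-4.52 ± 0.36, edgeR adjusted p = 3.78e-07). Those last are genes of later, elongating spermatids. In the controls Prm1 stood at 1807 and 1667 CPM in early clusters 18 and 2, no higher than the 3167 CPM of the spermatogonia-like, 11905 CPM of the Leydig-like and 9198 CPM of the macrophage-like cluster, which should lack it. In clusters 16 and 5, the rest of the peak stage, Prm1 stood at 9604 and 3972 CPM, also below the Leydig-like level. Levels of this size are read as background. The counts for these 4 genes are not given as expression of the early clusters or of the peak stage. All 4 also fell in T against VC-T, with or without VC-T 1. In R against UC 1 of 4 rose in the peak stage (beside 3.03% of all genes) and 4 of 4 in the early clusters (beside 1.17%). In R against VC-R 1 of 4 rose in the peak stage (beside 0.7%) and, by edgeR, 0 of 4 in the early clusters (beside 0.0%), where 4 of 4 were under 0.05 before adjustment.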

How the data were processed

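scRNA-seq was measured in 15 testis libraries, 1 per mouse. The authors aligned reads to mm10 and counted UMIs per gene and barcode (Cell Ranger 3.0.0 in the submitters' processing notes, while the file headers name a later version). Whether intronic reads were counted is not given in the sources used here. The deposited values are raw counts. Cells with at least 500 genes, 1000 UMIs and under 30% mitochondrial UMIs were kept, and the 5.4% with the highest doublet score per library removed. Ambient RNA was not corrected. Leiden clustering (resolution 1.2, scanpy 1.11.5) used 2000 variable genes without the members and their relatives, and clusters were named by marker lists. UMIs were summed per library and stage (at least 10 cells), filtered on low counts, normalized by TMM and tested in edgeR 4.0.16, with DESeq2 1.42.0 as an alternative (R 4.3.3). TMM made T against UC differences 0.12 (log2) smaller than ratios of mean CPM in the peak stage, and 0.15 against VC-T. On simulated data for T against UC in the peak stage (10921 genes), 29 of 50 genes changed 1.5-fold reached an adjusted p under 0.05, and none the fold threshold. Relatives were translated GENCODE vM21 genes at least 40% identical over 60% of the shorter protein. Named genes were the 7 members, the 5 genes outside the families most like them, and list members, the relatives among the 10 most abundant. Members and lists were chosen with earlier results of these data known. Shares of cells carry no error between mice, whereas SEs and 95% intervals of fold changes are edgeR's and include the spread between libraries. Replicates were separate mice. Alternatives were other normalizations, filters, stages, clusterings and cell matching, and leaving out each library.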

Additional observations from a re-analysis of the deposited data

Results flagged for a closer look

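For Gm5458 and Gm3476 the effect of JQ1 at the end of dosing differed from the effect after recovery by a direct test in the peak stage. The T against VC-T effect exceeded the R against VC-R effect by 0.71 on the log2 scale for Gm5458 (edgeR adjusted p = 0.0042) and by 0.83 for Gm3476 (adjusted p = 0.0076). Each was higher in 3 of 3 T libraries than in both vehicle libraries of that time. Of 12127 genes tested, 794 passed in either direction. The difference rests on 2 VC-T libraries, 1 of which, VC-T 2, had only 10.0% of its peak-stage cells in the early clusters. In the early clusters alone the difference was 0.47 for Gm5458 (edgeR adjusted p = 0.047) and 0.52 for Gm3476 (adjusted p = 0.15), so that the latter no longer passed. With VC-T 1 included, the peak-stage difference was 0.68 for Gm5458 (edgeR adjusted p = 0.027) and 0.71 for Gm3476 (adjusted p = 0.065), and without VC-T 2 it was 0.54 (adjusted p = 0.082) and 0.77 (adjusted p = 0.069). The call of Gm5458 in the early clusters was lost without any 1 of the 11 libraries (adjusted p = 0.0501 to 0.35).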

How the results depend on the processing

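Over the members' results, 769 stayed on their side of the threshold, 57 no longer passed and 21 passed only under the alternative. Of the 769, 56 changed sign without passing in either setting. Among results that passed, 1 reversed, Gm3453 in T against UC, at -0.0015 in the early clusters with equal cells per pseudotime bin. In T against UC in the peak stage, the 17 alternatives kept an adjusted p under 0.05 in 16 for Gm8362 and Gm5458, 15 for Gm3149, 9 for Gm3476 and 8 for Gm3453. Against VC-T, Gm3476 passed the fold threshold in the whole spermatid-like class (1.17) and at Leiden resolution 0.8 (1.01).

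Counts of all genes past both thresholds moved more. For T against UC in the peak stage, 414 became 671 without the low-count filter, 1267 in the whole class, 160 with equal cells per bin, 1341 at resolution 0.8, 248 in the early clusters and 75 there with equal cells. For R against UC, 106 became 16 with DESeq2, 191 without the filter, 904 in the whole class, 60 with equal cells, 194 at resolution 0.8, 23 in the early clusters and 27 there with equal cells. For T against VC-T, 741 became 1670 in the whole class, 162 with equal cells, 1871 at resolution 0.8, 188 with VC-T 1 included, 252 in the early clusters and 31 there with equal cells. For R against VC-R, 37 became 6 with DESeq2, 140 without the filter, 11 in 1 fit over all groups, 816 in the whole class, 4 at resolution 0.8, 0 in the early clusters with or without equal cells and 18 without the cluster mostly from R. In spermatocyte-like cells, the 83 of T against UC became 407 with DESeq2 and 273 without the filter, and R against UC had 0 by both tools, with 836 genes under 0.05 before adjustment.

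Leaving out 1 library gave 311 to 667 genes for T against UC, 25 to 230 for R against UC, 549 to 877 for T against VC-T, 4 to 256 for R against VC-R and 2 to 380 for T against UC in spermatocyte-like cells. The log2 ratio of the 7-gene sum, 0.086 in T, was -0.33 after subtracting the somatic-like level, 0.89 as a share of all UMIs and 0.42 for the chromosome 14 genes in the early clusters, and leaving out 1 library gave 0.0068 to 0.18. In R it was 0.097, and -0.066, -0.057 and -0.011 with the somatic-like level subtracted, as a share of all UMIs and in the whole class, and leaving out 1 library gave 0.033 to 0.18.

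Replicate numbers are shared between groups, but same-numbered libraries did not deviate together (correlations of -0.11 to 0.12). With the replicate block, T against UC had 486 calls in the peak stage and 332 in spermatocyte-like cells, R against UC 91, T against VC-T 859 and R against VC-R 30. Within the early clusters 3 members no longer passed with the block, Gm8362 against UC (adjusted p = 0.054), and Gm3476 (0.066) and Gm6370 (0.057) against VC-T.

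Few UMIs per copy limit the precision for single copies. VC-T 2 gave only 82 early cells, though these had a median of 12458 UMIs. Shared 3′ sequence can leave each copy only part of its reads. Whether the reads counted for a copy all came from that copy was not tested.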
